A study of Mus musculus with 15 samples.

Results

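The mRNAs described here are those of potassium, voltage-gated calcium and voltage-gated sodium channels and of the TRPC, TRPV and TRPM cation channels, together with the partner proteins that share their gene symbols. They were chosen by symbol (Kcn, Cacn, Scn followed by a digit, and Trpc, Trpv or Trpm followed by a digit) and by a sum of at least 50 reads over 15 RNA-seq libraries. Of 161 symbols that matched, 79 met the sum, out of 24421 genes in the table. The libraries came from MAP cells, a line of immortalized progenitors of mouse adipocytes, after differentiation into adipocytes. The groups were forskolin for 4 h (FSK4h), 1 day (FSK1D) and 3 days (FSK3D), rosiglitazone for 3 days (Rosi3D), and vehicle, with 3 libraries in each. Forskolin activates adenylyl cyclase and so raises cAMP, and rosiglitazone activates the nuclear receptor PPARγ. All groups, vehicle included, had first received isobutylmethylxanthine, dexamethasone, insulin and rosiglitazone for 2 days and then insulin plus rosiglitazone alone for another 2. Treatment began at day 7 to 8. The sources used here give neither the doses nor the time at which vehicle cells were taken. The cells are 1 line, so no spread between lines or animals is measured.

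These proteins move ions across the plasma membrane and a few internal membranes. Potassium channels set the resting voltage, voltage-gated calcium and sodium channels open when the cell depolarizes, and TRP channels pass mixed cations in response to heat, stretch, lipids or calcium. Adipocytes are not classed as excitable cells, yet membrane voltage and calcium entry act on lipolysis and heat production in brown and beige fat. Pore-forming subunits work with partners (the KCNE, KCNAB, CACNB, CACNA2D and SCN beta families) that set their traffic and gating.

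The labels name the cells as adipocyte progenitors, while the mature adipocyte list (Adipoq, Plin1, Fabp4 and others, 10 of 10 in the table) summed to 9639.8 to 11155 CPM in FSK4h, 7211 to 7941 CPM in FSK1D, 15429.5 to 15680.0 CPM in FSK3D, 20578 to 21905 CPM in Rosi3D and 8864 to 10241 CPM in vehicle libraries (CPM, counts scaled to library size with TMM factors). Progenitor markers (10 of 10 in the table) summed to 625 to 709 CPM in FSK4h and 909.5 to 948 CPM in FSK1D. The sums were 715 to 783 CPM in FSK3D, 379 to 419.8 CPM in Rosi3D and 721 to 767 CPM in vehicle libraries. Against vehicle these sums were lower in FSK4h and Rosi3D, higher in FSK1D and overlapping in FSK3D. Gene by gene the picture differed in FSK4h, where 2 of 8 tested progenitor markers were called higher and 1 lower (median log2 fold change 0.101). In FSK1D 3 were called higher and 1 lower, in FSK3D 3 and 2, and in Rosi3D 0 and 6. Dpp4, at 0 in every treated group, was the only gene of this list at 0 in any group. The smallest library held 14056200 counts (FSK3D S11) and the largest 56282582 (Rosi3D S13), and the channel genes took 0.116% to 0.154% of a library's counts. Nervous and muscle tissue express many of these channels, so marker lists of 10 genes each were summed beside them. Smooth muscle markers summed to 239 to 253 CPM in FSK4h, 65.04 to 66.4 CPM in FSK1D, 94.9 to 99 CPM in FSK3D, 76.8 to 78.3 CPM in Rosi3D and 301 to 312 CPM in vehicle, with none at 0 in any group. Neuron markers summed to 15.9 to 19.9 CPM in FSK4h, 15.5 to 18.7 CPM in FSK1D, 11.03 to 11.5 CPM in FSK3D, 8.08 to 9.85 CPM in Rosi3D and 15.5 to 18.5 CPM in vehicle; Stmn2 and Elavl4 were at 0 in FSK4h, FSK3D, Rosi3D and vehicle, Nefl in FSK1D, FSK3D, Rosi3D and vehicle, and Rbfox3 in FSK1D. Skeletal muscle markers summed to 3.89 to 4.57 CPM in FSK4h, 1.29 to 2.47 CPM in FSK1D and 3.94 to 4.81 CPM in FSK3D. They summed to 29.6 to 31.6 CPM in Rosi3D and 4.59 to 5.14 CPM in vehicle. In Rosi3D nearly all of the sum was Acta1, while Myod1, Myf5, Myh1, Myh4 and Ckm were at 0 in Rosi3D and vehicle. Reads of Acta1 can be shared with Acta2, a gene of the smooth muscle list, and that list summed lower in Rosi3D than in vehicle. The part of shared reads was not tested. Endothelial and blood cell markers summed to 7.72 to 8.64 CPM in FSK4h, 4.44 to 5.82 CPM in FSK1D, 7.79 to 9.73 CPM in FSK3D, 4.09 to 5.85 CPM in Rosi3D and 6.99 to 9.23 CPM in vehicle. The part of these cell types in the results below was not tested.

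Grouped by symbol alone, which does not give the function of each member, the set held 14 voltage-gated potassium pores, 5 tandem-pore-domain potassium channels, 7 inward rectifiers, 5 calcium- or sodium-activated potassium channels, 9 potassium channel partners, 6 calcium pores, 8 calcium channel partners, 8 sodium pores, 2 sodium channel partners, 2 TRPC, 5 TRPV and 6 TRPM channels. Of the remaining pair, Trpc4ap encodes a TRPC4-associated adaptor protein and Kcnq1ot1 a noncoding RNA antisense to Kcnq1, so neither is a channel. Mean levels were low: 12 genes averaged at least 10 CPM over all libraries, 33 averaged 1 to 10 CPM and 34 fell below 1 CPM. Of the 79, 64 had enough reads to be tested among 14421 genes, and the other 15 did not. At the edge of the rule, Trpm2 (42 reads), Trpc5 (44), Kcnk13 (45) and Kcnmb3 (49) fell just outside, and Kcnv2 (55), Scn4a (67) and Trpm1 (67) were among those just inside. The cold channel gene Trpm8 had 40 reads in all 15 libraries together, the T-type calcium channel gene Cacna1h 5, the ATP-sensitive potassium channel gene Kcnj11 2 and the voltage-gated potassium channel gene Kcna3 none.

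Per kilobase of gene length, 3 of the genes stood above all others. The mean over all libraries was 50.4 CPM per kb for Trpc4ap, 49.4 for Kcnk3 and 43.3 for Trpm7, a channel fused to a kinase that carries magnesium and zinc. Next came the calcium channel partners Cacng7 (10.9 CPM per kb), Cacna2d1 (10.6) and Cacnb3 (8.77), then Trpc1 (8.75) and Kcne4 (6.22). Kcnk3 was thus the potassium channel pore with the highest level per length, and Cacna1c, the L-type calcium pore, reached 1.91 CPM per kb. The place of Cacng7 rests on the length given with its counts, 828 bases, against 7493 for Cacna2d1 and 3015 for Cacnb3. Without length, the means over all libraries were 9.03 CPM for Cacng7, 79.8 for Cacna2d1 and 26.4 for Cacnb3. Per kb, Cacng7 had a higher mean than Cacna2d1 in FSK4h (10.4 and 10.2 CPM per kb) and FSK3D (11.6 and 11.02), as it did in vehicle. Cacna2d1 had the higher mean per kb in FSK1D and Rosi3D: Cacng7 had 9.63 and Cacna2d1 11.6 CPM per kb in FSK1D and 9.53 and 10.9 CPM per kb in Rosi3D, against 13.3 and 9.44 CPM per kb in vehicle.

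**Figure D1:**
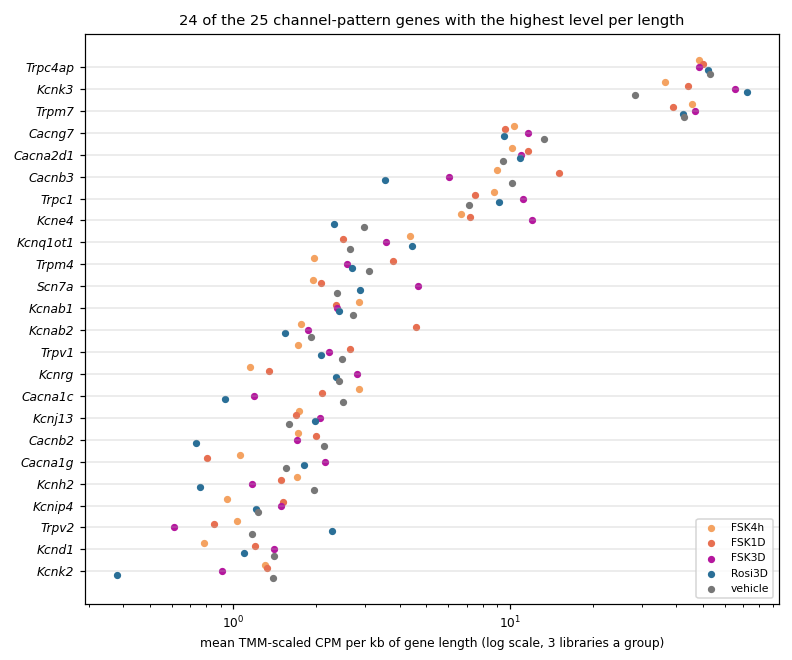
Group means (3 libraries each) of 24 of the 25 channel-pattern genes with the highest level per length, in TMM-scaled CPM per kilobase on a log axis, ordered by the mean over all libraries. Trpc4ap, Kcnk3 and Trpm7 lie above 25 CPM per kb in every group, while most of the other 21 lie below 10; the 5 points of Kcne4, Cacnb3, Kcnk2 and Trpv2 are widely spread.

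Differences were tested with edgeR's quasi-likelihood F test across all genes, and a gene was called at a Benjamini-Hochberg adjusted p under 0.05. In FSK4h against vehicle, 10 channel genes rose and 24 fell of 64, so 53.1% were called, against 59% of all tested genes (higher 28.4%, lower 30.7%). At 29 of these 34 genes the 3 FSK4h libraries did not overlap the 3 vehicle libraries; called genes without overlap were 45.3% of the 64, against 56.7% of all tested genes. In FSK1D, 14 rose and 14 fell (43.8%), against 40.2% of all genes (higher 19.4%, lower 20.7%). In FSK3D, 15 rose and 13 fell (43.8%), against 52.9% of all genes (higher 25.9%, lower 27%). In Rosi3D, 14 rose and 21 fell (54.7%), against 60.6% of all genes (higher 28.6%, lower 32%). The share of channel genes called was thus below that of all genes in FSK4h, FSK3D and Rosi3D and slightly above it in FSK1D. The 4 comparisons share the vehicle libraries. Over the 64 genes, 51 were called in at least 1 of the 4 (79.7%, against 85.7% of all tested genes), and 13, among them Kcnj13, Kcnmb4, Kcnab1, Kcnip4 and Trpv4, in none. These are levels of RNA in bulk culture, where fewer cells of a type and less RNA per cell cannot be told apart.

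The sizes of the changes were set beside those of all genes. Calls of at least 2-fold made up 29.7% of channel genes in FSK4h, against 11.7% of all tested genes, 18.8% against 7.3% in FSK1D, 17.2% against 8.23% in FSK3D and 35.9% against 14.6% in Rosi3D. No test of these shares was made, and the genes were not matched for level. A gene with few reads is called only at a larger fold change, and mean levels of the channel genes were low, as given above. Whether the shares would differ between genes of like level was not tested. The median log2 fold change of the 64 was -0.24 in FSK4h, against -0.035 for all genes, -0.086 in FSK1D, against -0.019, -0.003 in FSK3D, against 0.009, and -0.18 in Rosi3D, against -0.012. With library size alone as the scaling, the median of all genes in FSK4h against vehicle moved to -0.23, and 6 channel genes were called higher and 32 lower. The higher share of channel gene calls in FSK4h was then 15.8%, against 29.4% with TMM, while for all genes it was 27.3%, against 48.1% with TMM.

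**Figure D2:**
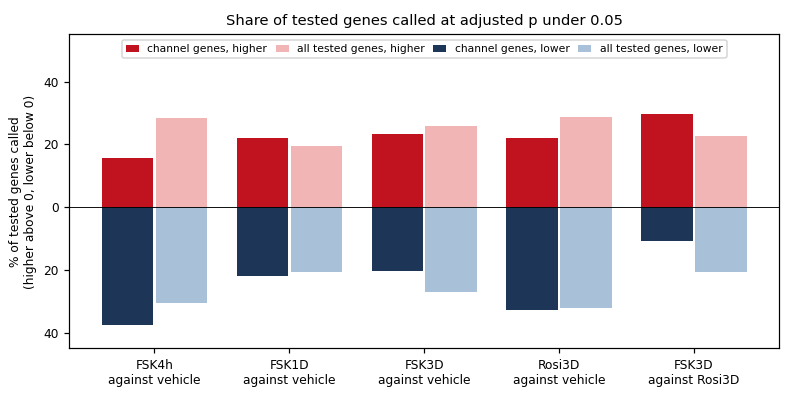
Percent of tested genes called higher (above 0) or lower (below 0) at an edgeR adjusted p under 0.05 in 5 comparisons, for 64 channel-pattern genes (dark bars) beside all 14421 tested genes (light bars). In FSK4h against vehicle 15.6% of channel genes were higher and 37.5% lower; in FSK3D against Rosi3D 29.7% were higher, against 22.5% of all genes.

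**Figure D3:**
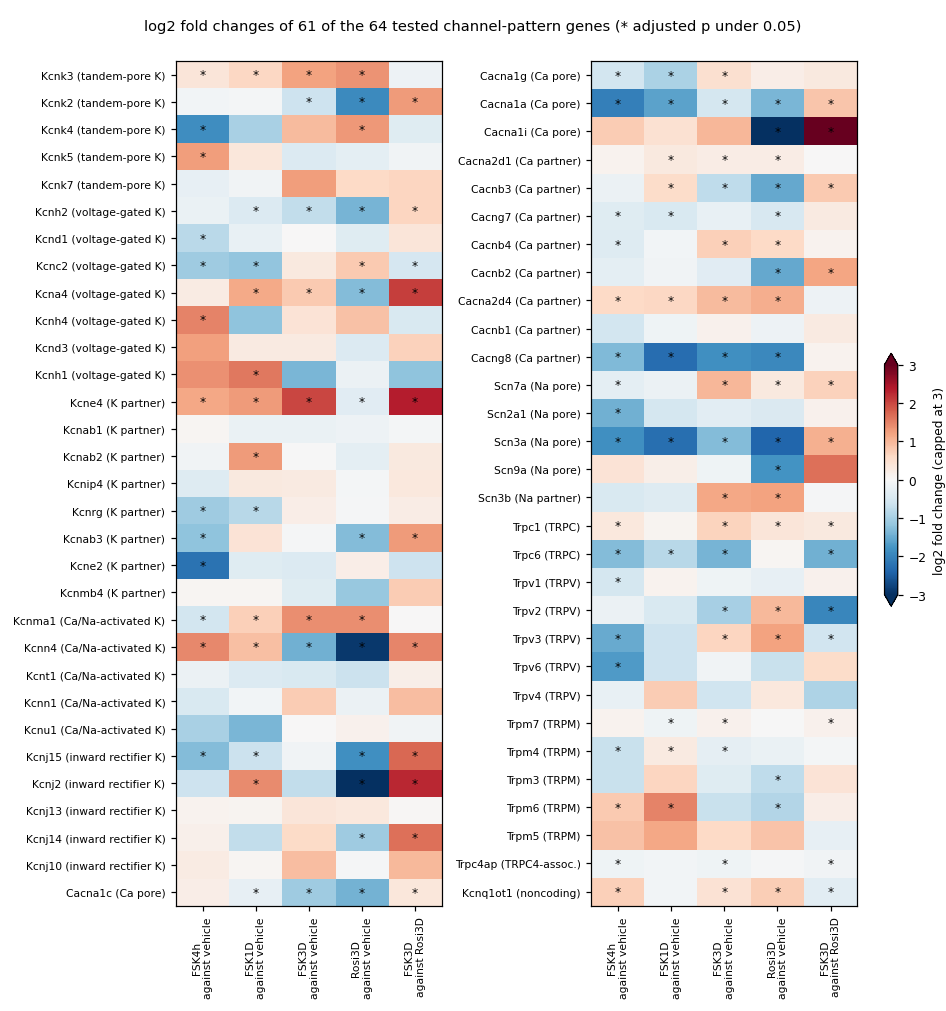
Fitted log2 fold change (colour, capped at 3 in either direction) of 61 of the 64 tested channel-pattern genes in 5 comparisons, grouped by role, with an asterisk where the edgeR adjusted p is under 0.05. Kcnk3, Kcne4 and Cacna2d4 carry an asterisk on red in all 3 forskolin columns, and Scn3a, Cacng8, Cacna1a and Trpc6 on blue; Cacna1i in Rosi3D rests on a single read there.

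Among the tandem-pore-domain potassium channels, which pass the steady outward leak that holds the resting voltage, Kcnk3 rose in every treatment. Kcnk3 (chr5:30588170-30625271, plus strand on GRCm38) encodes an acid-sensitive leak channel that in mouse brown adipocytes is known to limit adrenergic calcium entry and heat production. It had 102, 112 and 111 CPM in vehicle, 134, 145 and 139.6 CPM in FSK4h, 161, 184 and 158 CPM in FSK1D and 237, 241 and 269 CPM in FSK3D. No FSK4h, FSK1D or FSK3D library overlapped the vehicle range, and each time point lay above the one before it. The log2 fold change against vehicle was 0.37 ± 0.066 in FSK4h (SE, edgeR adjusted p = 4.46e-05), 0.63 ± 0.066 in FSK1D (edgeR adjusted p = 2.68e-08) and 1.203 ± 0.066 in FSK3D (edgeR adjusted p = 1.9e-13). FSK3D against FSK1D also differed (log2 fold change 0.57 ± 0.065, edgeR adjusted p = 7.38e-08). With rosiglitazone Kcnk3 had 279, 252 and 297 CPM in Rosi3D, against 102, 112 and 111 CPM in vehicle, without overlap (log2 fold change 1.35 ± 0.066, edgeR adjusted p = 8.29e-15). Between the 3-day treatments FSK3D averaged 249 ± 17.2 and Rosi3D 276 ± 22.6 CPM (SD, n = 3 each), the ranges overlapped, and no difference was called (log2 fold change -0.15 ± 0.064, edgeR adjusted p = 0.0705, 95% interval -0.28 to -0.016). The opposite-strand gene Gm9899 overlaps 5.8% of the Kcnk3 exon bases, and whether counting used strand is not given.

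The other leak channels moved differently. Kcnk2, a stretch- and lipid-sensitive leak channel, had 1.41, 1.95 and 1.32 CPM in Rosi3D, against 4.81, 6.04 and 6.31 CPM in vehicle, a drop without overlap (log2 fold change -1.904 ± 0.18, edgeR adjusted p = 5.07e-11). In FSK3D it had 3.75, 3.97 and 3.498 CPM and fell less (log2 fold change -0.62 ± 0.17, edgeR adjusted p = 0.00245), and the 3-day treatments differed, with FSK3D higher (log2 fold change 1.28 ± 0.196, edgeR adjusted p = 1.44e-06). It was not called in FSK4h (log2 fold change -0.08) or FSK1D (-0.06). Kcnk4, its relative, was near the detection limit, with 0.05497, 0.0404 and 0.288 CPM in FSK4h, against 0.586, 0.197 and 0.624 CPM in vehicle (log2 fold change -1.87 ± 0.64, edgeR adjusted p = 0.0126). The Kcnk4 call in FSK4h was lost without vehicle S1, vehicle S3, FSK4h S4 or FSK4h S5 (edgeR adjusted p from 0.0562 to 0.0897). In Rosi3D Kcnk4 averaged 1.16 ± 0.141 CPM and vehicle 0.469 ± 0.236 (log2 fold change 1.300 ± 0.46, edgeR adjusted p = 0.0146). The Kcnk4 call in Rosi3D was lost without vehicle S2 (edgeR adjusted p = 0.104). Kcnk5, an alkaline-activated member, had 1.24, 1.54 and 0.216 CPM in FSK4h, against 0.3703, 0.328 and 0.5502 CPM in vehicle, with overlap (log2 fold change 1.26 ± 0.52, edgeR adjusted p = 0.0357). The Kcnk5 call in FSK4h was lost without vehicle S1, vehicle S2, FSK4h S4 or FSK4h S5 (edgeR adjusted p from 0.0946 to 0.202), with library size alone as the scaling (edgeR adjusted p = 0.0692) or in DESeq2's Wald test (DESeq2 adjusted p = 0.0738).

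Of the voltage-gated potassium pores, which open on depolarization and restore the voltage, Kcna4 moved apart under the 2 drugs. It encodes a fast-inactivating pore. It had 3.34, 3.15 and 3.47 CPM in FSK3D and 0.492, 0.743 and 1.32 CPM in Rosi3D, against 2.34, 1.51 and 1.98 CPM in vehicle. The FSK3D libraries lay above vehicle and the Rosi3D libraries below it. It rose in FSK1D (log2 fold change 1.13 ± 0.23, edgeR adjusted p = 0.000163) and in FSK3D (log2 fold change 0.77 ± 0.24, edgeR adjusted p = 0.00696), fell in Rosi3D (log2 fold change -1.29 ± 0.28, edgeR adjusted p = 0.000144) and differed between FSK3D and Rosi3D (log2 fold change 2.07 ± 0.27, edgeR adjusted p = 9.09e-08). The Kcna4 call in FSK3D was lost with all libraries thinned to the smallest total (edgeR adjusted p = 0.0683).

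Other voltage-gated potassium pores moved in both directions. Kcnh2, the pore that ends the cardiac action potential, fell in FSK1D (log2 fold change -0.402 ± 0.13, edgeR adjusted p = 0.0113), FSK3D (log2 fold change -0.75 ± 0.13, edgeR adjusted p = 1.41e-05) and Rosi3D (log2 fold change -1.396 ± 0.14, edgeR adjusted p = 6.72e-11). It had 5.18, 5.48 and 5.63 CPM in FSK3D and 3.27, 3.995 and 3.27 CPM in Rosi3D, against 9.904, 8.43 and 9.06 CPM in vehicle. The Kcnh2 call in FSK1D was lost without vehicle S1 or FSK1D S7 (edgeR adjusted p from 0.0639 to 0.0868). Kcnc2, a fast delayed rectifier, had 2.44, 4.04 and 4.84 CPM in vehicle, 2.03, 1.698 and 1.55 CPM in FSK4h, 1.46, 1.59 and 1.88 CPM in FSK1D and 4.49, 4.45 and 4.71 CPM in FSK3D. The 6 libraries of FSK4h and FSK1D lay below the vehicle range, and those of FSK3D overlapped it. Kcnc2 fell in FSK4h (log2 fold change -1.08 ± 0.22, edgeR adjusted p = 6.36e-05) and FSK1D (log2 fold change -1.19 ± 0.22, edgeR adjusted p = 3.91e-05) and rose in Rosi3D (log2 fold change 0.79 ± 0.19, edgeR adjusted p = 0.000514). Kcnd1, an A-type pore, had 3.82, 2.51 and 2.66 CPM in FSK4h, against 5.89, 5.41 and 4.77 CPM in vehicle (log2 fold change -0.82 ± 0.19, edgeR adjusted p = 0.000352) and was not called at the later times. Kcnh4, an ether-a-go-go type pore, rose at 4 h, with 0.797, 0.809 and 0.9003 CPM in FSK4h, against 0.525, 0.197 and 0.147 CPM in vehicle (log2 fold change 1.48 ± 0.51, edgeR adjusted p = 0.0132). The Kcnh4 call in FSK4h was lost without vehicle S2 or vehicle S3 (edgeR adjusted p from 0.062 to 0.071). Kcnh1, of the same family and with 106 reads in all libraries, rose in FSK1D (log2 fold change 1.58 ± 0.600, edgeR adjusted p = 0.0341). The Kcnh1 call in FSK1D was lost without vehicle S1, vehicle S2, FSK1D S7 or FSK1D S9 (edgeR adjusted p from 0.0915 to 0.118), with no filter on low counts (edgeR adjusted p = 0.0842) or in DESeq2's Wald test (DESeq2 adjusted p = 0.0628).

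The potassium channel partner Kcne4 had the largest difference between the drugs among the partners. KCNE4 is a single-span subunit known to inhibit several voltage-gated potassium channels, and its gene lies at chr1:78816758-78820028, plus strand. It had 7.13, 6.79 and 8.03 CPM in vehicle, 13.99, 17.6 and 17.6 CPM in FSK4h, 17.5, 18.6 and 16.95 CPM in FSK1D and 30.3, 31.2 and 27.1 CPM in FSK3D. The forskolin libraries did not overlap vehicle at any time, and the FSK3D libraries lay above those of FSK4h and FSK1D. The log2 fold change against vehicle was 1.16 ± 0.11 in FSK4h (edgeR adjusted p = 2.58e-11), 1.27 ± 0.11 in FSK1D (adjusted p = 5.35e-12) and 2.01 ± 0.11 in FSK3D (adjusted p = 3.27e-17). With rosiglitazone it had 6.14, 5.76 and 5.14 CPM in Rosi3D, against 7.13, 6.79 and 8.03 CPM in vehicle (log2 fold change -0.35 ± 0.12, edgeR adjusted p = 0.0105). The Kcne4 call in Rosi3D was lost without vehicle S3 or Rosi3D S15 (edgeR adjusted p from 0.0664 to 0.081) or with all libraries thinned to the smallest total (edgeR adjusted p = 0.0518). FSK3D averaged 29.5 ± 2.17 CPM and Rosi3D 5.68 ± 0.506 CPM (SD, n = 3 each), a difference without overlap (log2 fold change 2.36 ± 0.11, edgeR adjusted p = 7.31e-19).

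Because forskolin acts through cAMP, the promoters of the genes higher at 4 h were searched for the cAMP response element. RefSeq promoters (250 bases before to 50 after each start, GRCm38.p6) were available for 58 of the 79 genes, 85 promoters in all. The full element TGACGTCA, read on both strands, was in 0 of the 85, against 1.79% of 32851 promoters of all genes. Its core TGACG, which the full element contains, was in 21.2% of the 85 and in 20.8% of all promoters. Of the 7 promoters of genes called higher in FSK4h, 3 held the core (Kcne4, Kcnq1ot1 and Trpc1), while those of Kcnh4, Kcnk5, Kcnn4 and Trpm6 did not. Some genes called higher, Kcnk3 and Cacna2d4 among them, had no promoter to search. The core was also in 5 of 23 promoters (21.7%) of genes called lower in FSK4h. Among promoters of genes not called there it was in 8 of 43 (18.6%). The 29 bases around the core nearest upstream of each start are shown 5′ to 3′ on the gene's strand. Only the 3 genes called higher in FSK4h that hold the letters are shown. Capitals mark TGACG or its reverse complement CGTCA.
Kcne4: tcccggaacacgTGACGatgcatttcttg
Kcnq1ot1: tcgtggctgccaCGTCAccaaggtcttgg
Trpc1: accagagaggcgCGTCAgccctggagccc
They lie at chr1:78816849-78816877 (plus strand) for Kcne4, chr7:143296573-143296601 (minus strand) for Kcnq1ot1 and chr9:95750414-95750442 (minus strand) for Trpc1, 50, 42 and 82 bases before the start of the RefSeq promoter entry in that order. That start lies downstream of the GENCODE gene start for Kcne4, so its stretch falls within the gene bounds given above. The PPAR element DR1, a direct repeat of AGGTCA spaced by 1 base, was in 0 of the 85 promoters, against 0.0396% of all. A match describes letters only, and no match says only that these letters are not in the window.

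The cytoplasmic beta subunits and other potassium channel partners differed in when they were called. Kcnab2, an aldo-keto reductase-like beta subunit, had 16.7, 17.9 and 17.5 CPM in FSK1D, against 6.54, 7.25 and 7.92 CPM in vehicle, without overlap (log2 fold change 1.27 ± 0.13, edgeR adjusted p = 3.36e-10). It was not called in FSK4h, FSK3D or Rosi3D, whose means were 6.65 ± 1.11, 7.06 ± 1.18 and 5.82 ± 0.506 CPM, and FSK3D lay below FSK1D (log2 fold change -1.28 ± 0.13, edgeR adjusted p = 3.78e-10). Kcnab3, the related subunit, fell in FSK4h (log2 fold change -1.22 ± 0.32, edgeR adjusted p = 0.00143) and in Rosi3D (log2 fold change -1.31 ± 0.32, edgeR adjusted p = 0.000557), with means of 0.669 ± 0.0845 CPM in FSK4h, 0.5802 ± 0.271 CPM in Rosi3D and 1.57 ± 0.156 CPM in vehicle. FSK3D was above Rosi3D (log2 fold change 1.28 ± 0.33, edgeR adjusted p = 0.00168). Kcnrg, a soluble protein that in human cells suppresses voltage-gated potassium channels, fell in FSK4h (log2 fold change -1.06 ± 0.19, edgeR adjusted p = 8.05e-06) and FSK1D (log2 fold change -0.84 ± 0.18, edgeR adjusted p = 0.000332) and averaged 5.14 ± 0.7197 CPM in FSK3D and 4.41 ± 0.944 CPM in vehicle. Kcne2, another single-span subunit, had 0.137, 0 and 0.144 CPM in FSK4h, against 0.555, 0.656 and 0.2201 CPM in vehicle (log2 fold change -2.22 ± 0.697, edgeR adjusted p = 0.00662) and was not called in the other groups. Kcnab1 was called in no comparison, with group means of 9.91 ± 0.542 CPM in FSK4h, 8.19 ± 1.43 in FSK1D, 8.26 ± 1.34 in FSK3D, 8.36 ± 1.504 in Rosi3D and 9.46 ± 1.38 in vehicle.

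Both well-detected calcium-activated potassium channels turned during forskolin treatment, in opposite orders. Kcnma1 encodes the large-conductance channel opened by calcium and voltage. It had 3.27, 2.95 and 3.52 CPM in vehicle, 2.94, 1.46 and 2.02 CPM in FSK4h, 6.33, 5.22 and 4.52 CPM in FSK1D and 8.52, 7.67 and 9.13 CPM in FSK3D. The FSK4h libraries lay below vehicle and those of FSK1D and FSK3D above it. It fell in FSK4h (log2 fold change -0.56 ± 0.195, edgeR adjusted p = 0.0135), rose in FSK1D (log2 fold change 0.72 ± 0.18, edgeR adjusted p = 0.00117) and rose in FSK3D (log2 fold change 1.39 ± 0.17, edgeR adjusted p = 2.56e-08). The Kcnma1 call in FSK4h was lost without vehicle S3, FSK4h S5 or FSK4h S6 (edgeR adjusted p from 0.0546 to 0.131) or with all libraries thinned to the smallest total (edgeR adjusted p = 0.0549). FSK3D against FSK4h was called (log2 fold change 1.95 ± 0.18, edgeR adjusted p = 2.1e-11). Rosi3D libraries had 8.28, 9.29 and 7.94 CPM, all above vehicle (log2 fold change 1.38 ± 0.17, edgeR adjusted p = 1.18e-08), and FSK3D and Rosi3D differed by a log2 of 0.0041 ± 0.16 (95% interval -0.32 to 0.33, edgeR adjusted p = 0.987). This channel is abundant in smooth muscle. Smooth muscle markers summed to 94.9 to 99 CPM in FSK3D, 76.8 to 78.3 CPM in Rosi3D and 301 to 312 CPM in vehicle. Their part in the Kcnma1 values was not tested. An antisense gene overlaps 6.0% of the Kcnma1 exon bases.

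Kcnn4 encodes the intermediate-conductance calcium-activated channel. It had 1.296, 1.18 and 1.69 CPM in vehicle, 4.34, 3.07 and 3.75 CPM in FSK4h, 2.58, 3.22 and 1.99 CPM in FSK1D and 0.408, 0.548 and 0.572 CPM in FSK3D. The FSK4h and FSK1D libraries lay above vehicle and the FSK3D libraries below it. Kcnn4 rose in FSK4h (log2 fold change 1.43 ± 0.29, edgeR adjusted p = 5.82e-05) and FSK1D (log2 fold change 0.91 ± 0.29, edgeR adjusted p = 0.0131) and fell in FSK3D (log2 fold change -1.43 ± 0.38, edgeR adjusted p = 0.00177), and FSK3D against FSK1D was called (log2 fold change -2.34 ± 0.36, edgeR adjusted p = 1.26e-06). The Kcnn4 call in FSK1D was lost without vehicle S2 or FSK1D S8 (edgeR adjusted p from 0.057 to 0.0821) or with all libraries thinned to the smallest total (edgeR adjusted p = 0.0752). In Rosi3D it had 0.317, 0 and 0.0778 CPM, the lowest of the 5 groups (log2 fold change -2.89 ± 0.42, edgeR adjusted p = 3.12e-07). FSK3D exceeded Rosi3D (log2 fold change 1.46 ± 0.51, edgeR adjusted p = 0.02). The Kcnn4 call in FSK3D against Rosi3D was lost without FSK3D S12, Rosi3D S14 or Rosi3D S15 (edgeR adjusted p from 0.0667 to 0.0857) or with counts halved (edgeR adjusted p = 0.0523).

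Of 5 tested inward rectifiers, which pass potassium near the resting voltage, 3 were higher in FSK3D than in Rosi3D, against 22.5% of all tested genes. Kcnj2, the strong inward rectifier, had 3.27, 2.1 and 2.79 CPM in vehicle, 2.64, 0.809 and 1.69 CPM in FSK4h, 8.69, 4.77 and 8.304 CPM in FSK1D and 1.92, 1.51 and 1.46 CPM in FSK3D. The FSK1D libraries lay above all others. It rose in FSK1D (log2 fold change 1.41 ± 0.29, edgeR adjusted p = 0.000495) and was not called in FSK4h (log2 fold change -0.62 ± 0.33, edgeR adjusted p = 0.11) or FSK3D (log2 fold change -0.74 ± 0.34, edgeR adjusted p = 0.0784). With rosiglitazone Kcnj2 had 0.422, 0.0929 and 0.389 CPM in Rosi3D, against 3.27, 2.1 and 2.79 CPM in vehicle, without overlap (log2 fold change -2.99 ± 0.42, edgeR adjusted p = 2.15e-06). FSK3D averaged 1.63 ± 0.2501 CPM and Rosi3D 0.301 ± 0.181 CPM (log2 fold change 2.26 ± 0.46, edgeR adjusted p = 0.00036). Kcnj15 had 7.75, 8.36 and 8.204 CPM in FSK3D and 2.06, 2.83 and 2.69 CPM in Rosi3D, against 8.18, 10.3 and 7.81 CPM in vehicle. It fell in FSK4h (log2 fold change -1.31 ± 0.17, edgeR adjusted p = 3.43e-08), FSK1D (log2 fold change -0.64 ± 0.16, edgeR adjusted p = 0.00148) and Rosi3D (log2 fold change -1.84 ± 0.18, edgeR adjusted p = 4.17e-11), was not called in FSK3D (log2 fold change -0.11 ± 0.16, edgeR adjusted p = 0.569), and was higher in FSK3D than in Rosi3D (log2 fold change 1.72 ± 0.18, edgeR adjusted p = 7.45e-10). Kcnj14 fell in Rosi3D (log2 fold change -1.07 ± 0.36, edgeR adjusted p = 0.00977), with means of 1.64 ± 0.575 CPM in FSK3D, 0.5002 ± 0.171 CPM in Rosi3D and 1.12 ± 0.0642 CPM in vehicle (FSK3D against Rosi3D, log2 fold change 1.65 ± 0.35, edgeR adjusted p = 0.000218). Kcnj13 was called nowhere, and 49.1% of its exon bases overlap Gigyf2 on the other strand.

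**Figure D4:**
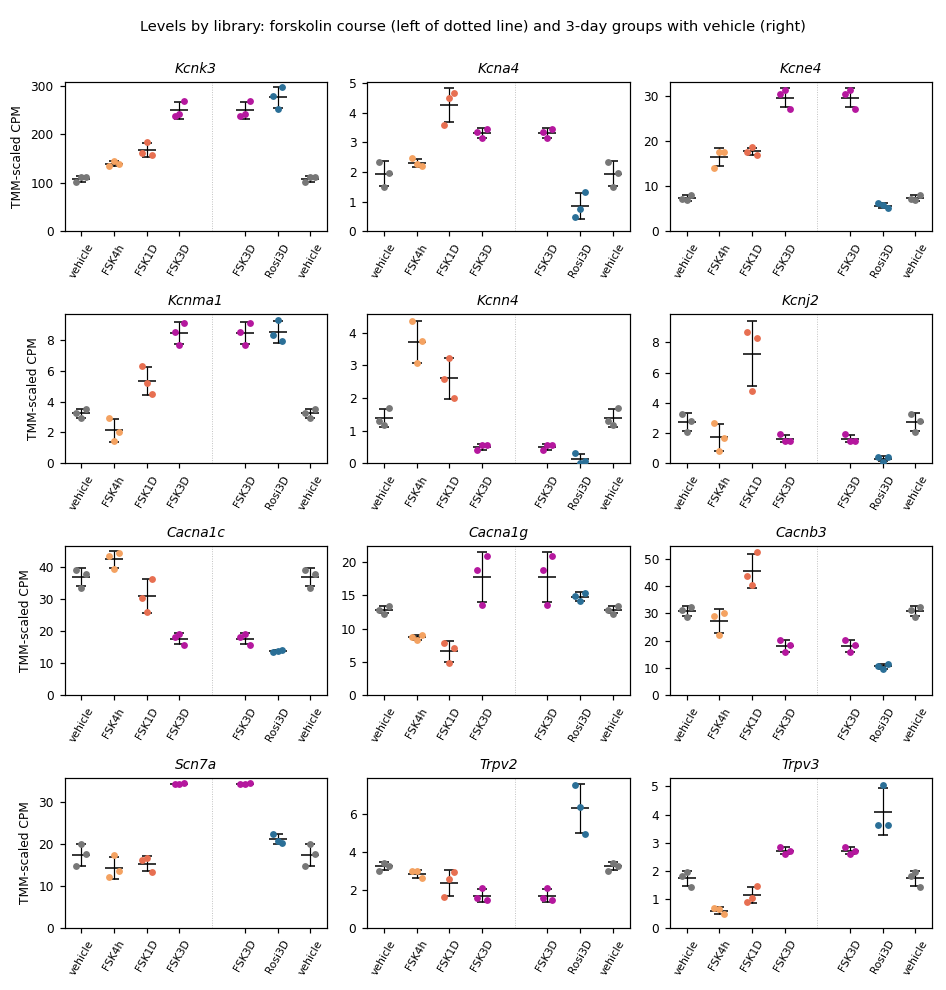
TMM-scaled CPM of 12 channel-pattern genes in each library (points), with group means and SD bars (3 libraries each); left of the dotted line the forskolin course from vehicle to 3 days, right of it FSK3D, Rosi3D and vehicle. Kcnk3 lies above vehicle with both drugs, Kcna4 above it in FSK3D and below it in Rosi3D, Kcne4 rises with forskolin alone, Kcnn4 falls to 0.509 CPM in FSK3D, and Kcnj2 peaks in FSK1D.

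Of the calcium pores, the L-type gene fell at 3 days and the T-type gene Cacna1g turned over time. Cacna1c encodes the L-type pore of heart and smooth muscle (chr6:118587240-119196418, minus strand). It had 38.97, 33.5 and 37.8 CPM in vehicle, 43.3, 39.3 and 44.2 CPM in FSK4h, 30.3, 25.9 and 36.3 CPM in FSK1D and 18.1, 19.05 and 15.7 CPM in FSK3D. The FSK4h libraries lay just above vehicle without a call (log2 fold change 0.201 ± 0.089, edgeR adjusted p = 0.0511), and those of FSK3D all lay below it (log2 fold change -1.07 ± 0.097, edgeR adjusted p = 5.67e-11). In Rosi3D it had 13.6, 13.9 and 14.01 CPM, below every FSK3D library (log2 fold change -1.41 ± 0.096, edgeR adjusted p = 4.09e-14). FSK3D against Rosi3D was called as well (log2 fold change 0.34 ± 0.103, edgeR adjusted p = 0.008). Cacna1c was also called lower in FSK1D (log2 fold change -0.25 ± 0.09, edgeR adjusted p = 0.0243). The Cacna1c call in FSK1D was lost without vehicle S1, vehicle S3, FSK1D S7 or FSK1D S8 (edgeR adjusted p from 0.0965 to 0.284), in DESeq2's Wald test (DESeq2 adjusted p = 0.0652) or with only both groups in the fit (edgeR adjusted p = 0.0854). The smooth muscle marker sum was 65.04 to 66.4 CPM in FSK1D, 94.9 to 99 CPM in FSK3D and 76.8 to 78.3 CPM in Rosi3D. In vehicle that sum was 301 to 312 CPM. Cacna1c averaged 30.8 ± 5.23 CPM in FSK1D. The part of smooth muscle markers in the Cacna1c values was not tested.

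Cacna1g encodes a T-type pore, which opens near the resting voltage. It had 12.8, 12.2 and 13.4 CPM in vehicle, 8.74, 8.29 and 8.97 CPM in FSK4h, 7.86, 4.81 and 7.12 CPM in FSK1D and 18.7, 13.5 and 20.9 CPM in FSK3D. FSK4h and FSK1D libraries lay below vehicle and FSK3D libraries above it. It fell in FSK4h (log2 fold change -0.56 ± 0.14, edgeR adjusted p = 0.000727) and FSK1D (log2 fold change -0.95 ± 0.14, edgeR adjusted p = 1.74e-06), rose in FSK3D (log2 fold change 0.49 ± 0.13, edgeR adjusted p = 0.00207), and FSK3D against FSK1D was called (log2 fold change 1.45 ± 0.14, edgeR adjusted p = 4.64e-10). Rosi3D averaged 14.8 ± 0.6404 CPM and vehicle 12.8 ± 0.556 CPM, with no call (log2 fold change 0.21 ± 0.13, edgeR adjusted p = 0.165). Cacna1a, the P/Q-type pore of nerve endings, had 6.63, 7.12 and 5.87 CPM in vehicle, 1.29, 1.62 and 1.84 CPM in FSK4h, 1.78, 2.04 and 2.64 CPM in FSK1D and 3.91, 5.75 and 4.13 CPM in FSK3D, with every treated library below vehicle. Its log2 fold change was -2.06 ± 0.202 in FSK4h (edgeR adjusted p = 9.05e-11), -1.603 ± 0.195 in FSK1D (adjusted p = 2.3e-08) and -1.38 ± 0.19 in Rosi3D (adjusted p = 8.54e-08). The FSK3D fall was smaller (log2 fold change -0.54 ± 0.18, edgeR adjusted p = 0.0133). The Cacna1a call in FSK3D was lost without vehicle S2, FSK3D S10 or FSK3D S12 (edgeR adjusted p from 0.0637 to 0.0887) or with all libraries thinned to the smallest total (edgeR adjusted p = 0.0732). Neuron markers summed to 15.9 to 19.9 CPM in FSK4h, 15.5 to 18.7 CPM in FSK1D, 11.03 to 11.5 CPM in FSK3D and 8.08 to 9.85 CPM in Rosi3D, against 15.5 to 18.5 CPM in vehicle, so they overlapped vehicle in FSK4h and FSK1D and lay below it in FSK3D and Rosi3D. Their part in the Cacna1a values was not tested. Cacna1i, another T-type pore, had 1 read over the Rosi3D libraries and 19 over the vehicle libraries, a ratio of 0.0446 with a 95% interval of 0.00107 to 0.281 that covers counting error only (log2 fold change -3.93 ± 1.21, edgeR adjusted p = 0.00549). The interval takes reads as independent and would be too narrow if both mates of a pair were counted. The fitted fold change of Cacna1i depends on the prior count. The Cacna1i call in Rosi3D was lost without vehicle S1 or Rosi3D S13 (edgeR adjusted p from 0.0613 to 0.0877).

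Calcium channel partners set how many pores reach the membrane. Cacnb3, a cytoplasmic beta subunit (chr15:98630840-98644529, plus strand), had 31.3, 28.7 and 32.5 CPM in vehicle, 29.1, 22.1 and 30.2 CPM in FSK4h, 43.5, 40.5 and 52.5 CPM in FSK1D and 20.2, 15.96 and 18.3 CPM in FSK3D. The FSK1D libraries lay above vehicle and the FSK3D libraries below it. It rose in FSK1D (log2 fold change 0.56 ± 0.105, edgeR adjusted p = 0.000122) and fell in FSK3D (log2 fold change -0.75 ± 0.11, edgeR adjusted p = 4.8e-06). In Rosi3D it had 10.7, 9.76 and 11.4 CPM, below every FSK3D library (log2 fold change -1.53 ± 0.12, edgeR adjusted p = 4.12e-11). FSK3D against Rosi3D was called as well (log2 fold change 0.78 ± 0.12, edgeR adjusted p = 1.21e-05). Cacnb2 fell in Rosi3D, with 3.46, 3.86 and 2.49 CPM in Rosi3D, against 9.97, 8.47 and 9.94 CPM in vehicle (log2 fold change -1.53 ± 0.16, edgeR adjusted p = 4.55e-10), and was not called in FSK3D (log2 fold change -0.34 ± 0.15, edgeR adjusted p = 0.059); FSK3D was the higher of the 2 (log2 fold change 1.18 ± 0.17, edgeR adjusted p = 4.2e-07). Cacnb4 went the other way, with 13.2, 12.2 and 11.99 CPM in FSK3D and 12.03, 10.1 and 12.5 CPM in Rosi3D, against 7.16, 7.25 and 8.51 CPM in vehicle. It rose in FSK3D (log2 fold change 0.71 ± 0.13, edgeR adjusted p = 3.1e-05) and Rosi3D (log2 fold change 0.61 ± 0.13, edgeR adjusted p = 0.000141), and its libraries in FSK4h overlapped vehicle (log2 fold change -0.38 ± 0.14, edgeR adjusted p = 0.0198). The Cacnb4 call in FSK4h was lost without vehicle S3, FSK4h S4 or FSK4h S6 (edgeR adjusted p from 0.0958 to 0.181) or with all libraries thinned to the smallest total (edgeR adjusted p = 0.346). Cacnb1 was not called in any group against vehicle, and was higher in FSK3D than in FSK4h (log2 fold change 0.68 ± 0.25, edgeR adjusted p = 0.0157). The Cacnb1 call in FSK3D against FSK4h was lost without FSK4h S6 or FSK3D S12 (edgeR adjusted p from 0.0538 to 0.0649).

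Among the extracellular and transmembrane calcium channel partners, Cacna2d1 and Cacna2d4 rose at 3 days and Cacng8 fell in all 4 treated groups. Cacna2d1, the partner that binds gabapentin, had 87.2 ± 7.599 CPM in FSK1D, 82.5 ± 3.28 CPM in FSK3D, 81.9 ± 1.61 CPM in Rosi3D and 70.8 ± 4.36 CPM in vehicle (SD, n = 3 each). It rose in FSK1D (log2 fold change 0.302 ± 0.062, edgeR adjusted p = 0.000139), FSK3D (log2 fold change 0.22 ± 0.062, edgeR adjusted p = 0.00325) and Rosi3D (log2 fold change 0.21 ± 0.061, edgeR adjusted p = 0.00341), and the largest of these was 1.23-fold. Cacna2d4, its relative, rose in FSK3D (log2 fold change 0.94 ± 0.21, edgeR adjusted p = 0.000365) and Rosi3D (log2 fold change 1.097 ± 0.21, edgeR adjusted p = 2.31e-05). In FSK4h (log2 fold change 0.61 ± 0.21, edgeR adjusted p = 0.0148) and FSK1D (log2 fold change 0.62 ± 0.22, edgeR adjusted p = 0.0198) its libraries overlapped vehicle. The Cacna2d4 call in FSK4h was lost without vehicle S2, vehicle S3 or FSK4h S6 (edgeR adjusted p from 0.0528 to 0.0901), with library size alone as the scaling (edgeR adjusted p = 0.0912) or with all libraries thinned to the smallest total (edgeR adjusted p = 0.417). The Cacna2d4 call in FSK1D was lost without vehicle S2, vehicle S3, FSK1D S7 or FSK1D S8 (edgeR adjusted p from 0.0618 to 0.11) or with all libraries thinned to the smallest total (edgeR adjusted p = 0.172). Cacng7 and Cacng8 belong to a family whose members also attend AMPA-type glutamate receptors. Cacng7 fell in FSK4h (log2 fold change -0.36 ± 0.11, edgeR adjusted p = 0.00709), FSK1D (log2 fold change -0.47 ± 0.12, edgeR adjusted p = 0.00129) and Rosi3D (log2 fold change -0.48 ± 0.11, edgeR adjusted p = 0.000491), with means of 8.601 ± 0.4799, 7.98 ± 0.677 and 7.89 ± 0.5903 CPM, against 11.03 ± 0.562 CPM in vehicle. Cacng8 had 0.146, 0 and 0.306 CPM in FSK1D and 0.193, 0.186 and 0.195 CPM in Rosi3D, against 0.648, 0.8204 and 0.7703 CPM in vehicle, and fell in both (log2 fold change -2.28 ± 0.64, edgeR adjusted p = 0.00443, and log2 fold change -1.93 ± 0.59, edgeR adjusted p = 0.00526 in Rosi3D). It also fell in FSK4h (log2 fold change -1.32 ± 0.56, edgeR adjusted p = 0.0421) and FSK3D (log2 fold change -1.83 ± 0.62, edgeR adjusted p = 0.0136). The Cacng8 call in FSK4h was lost without vehicle S1, vehicle S2, vehicle S3, FSK4h S5 or FSK4h S6 (edgeR adjusted p from 0.0603 to 0.193), with no filter on low counts (edgeR adjusted p = 0.0572) or in DESeq2's Wald test (DESeq2 adjusted p = 0.113). The Cacng8 call in FSK3D was lost without FSK3D S10 (edgeR adjusted p = 0.0997).

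Among the sodium channels Scn7a rose in FSK3D, and the neuronal pore genes Scn3a and Scn2a1 fell in FSK4h. Scn7a encodes an atypical sodium channel that senses extracellular sodium (chr2:66673425-66784914, minus strand). It had 14.6, 19.9 and 17.6 CPM in vehicle, 12.1, 17.2 and 13.4 CPM in FSK4h, 16.1, 16.5 and 13.1 CPM in FSK1D and 34.3, 34.2 and 34.5 CPM in FSK3D. The FSK3D libraries lay within a narrow range above all others. It rose in FSK3D (log2 fold change 0.99 ± 0.11, edgeR adjusted p = 1.44e-08), and FSK3D exceeded Rosi3D (log2 fold change 0.701 ± 0.11, edgeR adjusted p = 4.67e-06), where it had 22.4, 20.7 and 20.04 CPM. It also rose in Rosi3D (log2 fold change 0.29 ± 0.11, edgeR adjusted p = 0.0283). The Scn7a call in Rosi3D was lost without vehicle S1 or Rosi3D S13 (edgeR adjusted p from 0.109 to 0.154). A fall in FSK4h (log2 fold change -0.29 ± 0.11, edgeR adjusted p = 0.0312) came with overlapping libraries. The Scn7a call in FSK4h was lost without vehicle S2, vehicle S3, FSK4h S4 or FSK4h S6 (edgeR adjusted p from 0.078 to 0.253), in DESeq2's Wald test (DESeq2 adjusted p = 0.0671), with only both groups in the fit (edgeR adjusted p = 0.075) or with all libraries thinned to the smallest total (edgeR adjusted p = 0.0785). Scn3a, a voltage-gated pore of neurons, had 3.301, 3.31 and 2.42 CPM in vehicle, 0.8795, 0.9704 and 0.684 CPM in FSK4h, 0.509, 0.795 and 0.574 CPM in FSK1D and 1.67, 1.23 and 0.795 CPM in FSK3D. Its 9 forskolin libraries lay below vehicle, with log2 fold changes of -1.83 ± 0.31 in FSK4h (edgeR adjusted p = 4.33e-06), -2.26 ± 0.32 in FSK1D (adjusted p = 5.57e-07) and -1.31 ± 0.304 in FSK3D (adjusted p = 0.000453). In Rosi3D it had 0.633, 0.7897 and 0.311 CPM (log2 fold change -2.37 ± 0.32, edgeR adjusted p = 7.81e-08). FSK3D lay above Rosi3D (log2 fold change 1.06 ± 0.36, edgeR adjusted p = 0.0152). The Scn3a call in FSK3D against Rosi3D was lost without FSK3D S10 or Rosi3D S15 (edgeR adjusted p from 0.0852 to 0.163) or with all libraries thinned to the smallest total (edgeR adjusted p = 0.101).

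Other sodium channel genes were lower at 4 h or low throughout. Scn2a1, another neuronal pore, had 1.26, 1.62 and 1.69 CPM in FSK4h, against 4.26, 4.2 and 3.93 CPM in vehicle, without overlap (log2 fold change -1.45 ± 0.23, edgeR adjusted p = 2.31e-06), and was not called at later times or in Rosi3D. Scn3b, a beta subunit that attends the pore, rose in FSK3D (log2 fold change 1.17 ± 0.38, edgeR adjusted p = 0.0106) and Rosi3D (log2 fold change 1.21 ± 0.37, edgeR adjusted p = 0.00523), with means of 1.22 ± 0.396 CPM in FSK3D, 1.26 ± 0.119 CPM in Rosi3D and 0.546 ± 0.162 CPM in vehicle. The Scn3b call in FSK3D was lost without vehicle S2 or FSK3D S10 (edgeR adjusted p from 0.061 to 0.105) or with all libraries thinned to the smallest total (edgeR adjusted p = 0.0606). The Scn3b call in Rosi3D was lost with all libraries thinned to the smallest total (edgeR adjusted p = 0.0593). Scn9a, the pore of pain-sensing neurons, averaged 0.0528 ± 0.0914 CPM in Rosi3D and 0.2901 ± 0.0355 CPM in vehicle (log2 fold change -1.78 ± 0.73, edgeR adjusted p = 0.0346). The Scn9a call in Rosi3D was lost without vehicle S1, vehicle S2, vehicle S3, Rosi3D S14 or Rosi3D S15 (edgeR adjusted p from 0.0538 to 0.122). Scn1a, Scn4a and Scn8a were among those too low to test.

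Trpc1 and Trpc6, the TRPC genes of the set, moved apart. Trpc1 encodes a subunit of cation channels linked to calcium entry after store release. It had 19.5, 22.9 and 21.8 CPM in vehicle, 24.3, 28.3 and 27.01 CPM in FSK4h, 22.3, 23.8 and 21.5 CPM in FSK1D and 31.6, 30.8 and 38.6 CPM in FSK3D. The FSK3D libraries lay above all others (log2 fold change 0.66 ± 0.086, edgeR adjusted p = 5.33e-08). It also rose in FSK4h (log2 fold change 0.31 ± 0.086, edgeR adjusted p = 0.00263). The Trpc1 call in FSK4h was lost with library size alone as the scaling (edgeR adjusted p = 0.237). In Rosi3D the rise was smaller (log2 fold change 0.37 ± 0.086, edgeR adjusted p = 0.000389), with means of 27.6 ± 1.097 CPM in Rosi3D and 21.4 ± 1.76 CPM in vehicle. FSK3D exceeded Rosi3D (log2 fold change 0.299 ± 0.085, edgeR adjusted p = 0.00421). The Trpc1 call in FSK3D against Rosi3D was lost without FSK3D S12 (edgeR adjusted p = 0.112). Trpc6, opened by diacylglycerol, had 1.88, 2.43 and 2.64 CPM in vehicle, 0.742, 0.93 and 1.15 CPM in FSK4h, 1.2, 1.4 and 1.301 CPM in FSK1D and 0.938, 1.44 and 0.477 CPM in FSK3D, and every forskolin library lay below vehicle. It fell in FSK4h (log2 fold change -1.31 ± 0.29, edgeR adjusted p = 0.000209), FSK1D (log2 fold change -0.83 ± 0.28, edgeR adjusted p = 0.0166) and FSK3D (log2 fold change -1.398 ± 0.305, edgeR adjusted p = 0.000218). The Trpc6 call in FSK1D was lost without vehicle S2, vehicle S3, FSK1D S7 or FSK1D S9 (edgeR adjusted p from 0.0503 to 0.0763). With rosiglitazone it had 2.55, 2.601 and 1.98 CPM in Rosi3D, against 1.88, 2.43 and 2.64 CPM in vehicle, with no call (log2 fold change 0.048 ± 0.26, edgeR adjusted p = 0.888), and FSK3D lay below Rosi3D (log2 fold change -1.45 ± 0.303, edgeR adjusted p = 0.000177).

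Trpv2 and Trpv3 were the TRPV genes that changed at 3 days. TRPV2, a cation channel that in mouse brown adipocytes is known to take part in thermogenesis, had its mRNA at 1.55, 2.06 and 1.43 CPM in FSK3D and 7.51, 6.36 and 4.94 CPM in Rosi3D, against 2.99, 3.41 and 3.26 CPM in vehicle. FSK3D libraries lay below vehicle and Rosi3D libraries above it. It fell in FSK3D (log2 fold change -0.98 ± 0.23, edgeR adjusted p = 0.000409), rose in Rosi3D (log2 fold change 0.98 ± 0.19, edgeR adjusted p = 3.06e-05), and the 2 treatments differed (log2 fold change -1.96 ± 0.21, edgeR adjusted p = 2.05e-09). Trpv3, a warmth-gated channel of keratinocytes, had 1.82, 1.97 and 1.43 CPM in vehicle, 0.687, 0.647 and 0.468 CPM in FSK4h, 0.909, 1.06 and 1.45 CPM in FSK1D and 2.85, 2.603 and 2.703 CPM in FSK3D. The FSK4h libraries lay below vehicle and the FSK3D libraries above it. It fell in FSK4h (log2 fold change -1.52 ± 0.28, edgeR adjusted p = 1.8e-05) and rose in FSK3D (log2 fold change 0.64 ± 0.24, edgeR adjusted p = 0.0217). The Trpv3 call in FSK3D was lost without vehicle S3 or FSK3D S10 (edgeR adjusted p from 0.0577 to 0.0867) or with all libraries thinned to the smallest total (edgeR adjusted p = 0.0548). FSK3D against FSK4h was called (log2 fold change 2.16 ± 0.27, edgeR adjusted p = 1.7e-08). Rosi3D had 3.62, 5.06 and 3.62 CPM, above every FSK3D and vehicle library (log2 fold change 1.21 ± 0.22, edgeR adjusted p = 1.68e-05 against vehicle). FSK3D against Rosi3D was called too (log2 fold change -0.57 ± 0.22, edgeR adjusted p = 0.0345). The Trpv3 call in FSK3D against Rosi3D was lost without FSK3D S10, FSK3D S11, FSK3D S12 or Rosi3D S14 (edgeR adjusted p from 0.061 to 0.184).

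The other TRPV genes were called at 4 h or in no comparison with vehicle. Trpv1, the heat and capsaicin channel, fell at 4 h, with 6.62, 6.35 and 5.44 CPM in FSK4h, against 8.58, 10.3 and 7.74 CPM in vehicle (log2 fold change -0.53 ± 0.15, edgeR adjusted p = 0.00392). It was not called in FSK1D (log2 fold change 0.100 ± 0.15, edgeR adjusted p = 0.644), FSK3D (log2 fold change -0.12 ± 0.15, edgeR adjusted p = 0.525) or Rosi3D (log2 fold change -0.24 ± 0.15, edgeR adjusted p = 0.163). Trpv6, a calcium-selective channel of epithelia, averaged 0.148 ± 0.0126 CPM in FSK4h and 0.479 ± 0.167 CPM in vehicle (log2 fold change -1.69 ± 0.56, edgeR adjusted p = 0.0092). The Trpv6 call in FSK4h was lost without vehicle S1 (edgeR adjusted p = 0.0538). Trpv4, an osmotically and mechanically gated channel that in mouse adipocytes is known to restrain thermogenic genes, had 0.245, 0 and 0.254 CPM in FSK3D and 0.246, 0.557 and 0.389 CPM in Rosi3D, against 0.154, 0.164 and 0.587 CPM in vehicle. Each treated group overlapped vehicle and no comparison was called (FSK3D against vehicle, log2 fold change -0.59 ± 0.79, edgeR adjusted p = 0.557, 95% interval -2.21 to 1.02).

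Trpm7, with 133283 reads in all libraries, differed from vehicle by a log2 of at most 0.13 in either direction. It had 294, 307 and 313 CPM in vehicle, 317, 330.4 and 334 CPM in FSK4h, 285, 271 and 283 CPM in FSK1D and 342, 349 and 309 CPM in FSK3D. It was called lower in FSK1D (log2 fold change -0.13 ± 0.045, edgeR adjusted p = 0.026) and higher in FSK3D (log2 fold change 0.13 ± 0.045, edgeR adjusted p = 0.0177). The Trpm7 call in FSK1D was lost without vehicle S2, vehicle S3, FSK1D S7, FSK1D S8 or FSK1D S9 (edgeR adjusted p from 0.0657 to 0.184), with DESeq2 size factors (edgeR adjusted p = 0.0679), with no filter on low counts (edgeR adjusted p = 0.0858), in DESeq2's Wald test (DESeq2 adjusted p = 0.0604) or with all libraries thinned to the smallest total (edgeR adjusted p = 0.0549). The Trpm7 call in FSK3D was lost without vehicle S1, FSK3D S10 or FSK3D S11 (edgeR adjusted p from 0.057 to 0.0579). Rosi3D averaged 302 ± 4.64 CPM and vehicle 305 ± 9.63 CPM, with no call (log2 fold change -0.012 ± 0.045, edgeR adjusted p = 0.838). FSK3D against Rosi3D was called (log2 fold change 0.14 ± 0.045, edgeR adjusted p = 0.0121). The Trpm7 call in FSK3D against Rosi3D was lost without FSK3D S10, FSK3D S11 or Rosi3D S13 (edgeR adjusted p from 0.0604 to 0.0907). Trpm4, a calcium-activated channel for monovalent cations, had 7.56, 8.41 and 8.89 CPM in FSK4h, against 13.6, 12.3 and 13.7 CPM in vehicle (log2 fold change -0.68 ± 0.11, edgeR adjusted p = 3.01e-06). It was called higher in FSK1D (log2 fold change 0.28 ± 0.11, edgeR adjusted p = 0.0335) and lower in FSK3D (log2 fold change -0.26 ± 0.11, edgeR adjusted p = 0.0464). The Trpm4 call in FSK1D was lost without vehicle S2 or FSK1D S8 (edgeR adjusted p from 0.112 to 0.13) or with library size alone as the scaling (edgeR adjusted p = 0.0545). The Trpm4 call in FSK3D was lost without vehicle S1, vehicle S3, FSK3D S10 or FSK3D S11 (edgeR adjusted p from 0.124 to 0.285), with DESeq2 size factors (edgeR adjusted p = 0.055), with the stricter filter (edgeR adjusted p = 0.0579), with no filter on low counts (edgeR adjusted p = 0.0725), in DESeq2's Wald test (DESeq2 adjusted p = 0.0712), with only both groups in the fit (edgeR adjusted p = 0.0555), with counts halved (edgeR adjusted p = 0.0676) or with all libraries thinned to the smallest total (edgeR adjusted p = 0.0634).

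Trpm6, a magnesium channel fused to a kinase like Trpm7, had 1.45, 1.08 and 0.9904 CPM in vehicle, 2.09, 1.86 and 2.12 CPM in FSK4h, 3.42, 2.16 and 4.32 CPM in FSK1D and 0.938, 0.685 and 0.604 CPM in FSK3D. The FSK1D libraries lay above all others. It rose in FSK1D (log2 fold change 1.48 ± 0.27, edgeR adjusted p = 2.28e-05) and in FSK4h (log2 fold change 0.78 ± 0.27, edgeR adjusted p = 0.0146). The Trpm6 call in FSK4h was lost without vehicle S3 (edgeR adjusted p = 0.061) or with library size alone as the scaling (edgeR adjusted p = 0.0625). It fell in Rosi3D (log2 fold change -0.88 ± 0.31, edgeR adjusted p = 0.0148). The Trpm6 call in Rosi3D was lost without vehicle S1 (edgeR adjusted p = 0.105). FSK3D was not called (log2 fold change -0.67 ± 0.32, edgeR adjusted p = 0.0811). Trpm3, a heat- and steroid-gated channel, averaged 1.12 ± 0.1996 CPM in Rosi3D and 1.87 ± 0.363 CPM in vehicle (log2 fold change -0.77 ± 0.29, edgeR adjusted p = 0.0248). The Trpm3 call in Rosi3D was lost without vehicle S2, vehicle S3, Rosi3D S13 or Rosi3D S15 (edgeR adjusted p from 0.0547 to 0.126) or with all libraries thinned to the smallest total (edgeR adjusted p = 0.147). In FSK1D Trpm3 had 3.16, 2.46 and 3.06 CPM, against 1.51, 1.87 and 2.24 CPM in vehicle, without overlap but without a call. Trpm3 was called lower in FSK3D than in FSK1D, a call lost without FSK3D S12 (edgeR adjusted p = 0.064). Trpm5 was called nowhere.

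The 2 genes of the set that are not channels changed as well. Kcnq1ot1, the noncoding RNA that silences imprinted genes around Kcnq1, had 219, 239.7 and 203 CPM in vehicle, 333, 378 and 381 CPM in FSK4h, 213, 197 and 213 CPM in FSK1D and 291, 337 and 267 CPM in FSK3D. The FSK4h libraries lay above vehicle, as did those of FSK3D. It rose in FSK4h (log2 fold change 0.72 ± 0.077, edgeR adjusted p = 3.08e-07), FSK3D (log2 fold change 0.43 ± 0.077, edgeR adjusted p = 0.00014) and Rosi3D (log2 fold change 0.74 ± 0.077, edgeR adjusted p = 1.83e-07), where it had 365, 380.5 and 361 CPM. Kcnq1 itself, with 70 reads in all, was not tested, and 3.0% of its exon bases overlap Kcnq1ot1. Trpc4ap, an adaptor of a ubiquitin ligase, averaged 154 ± 4.13 CPM in FSK4h, 154 ± 3.99 CPM in FSK3D, 167 ± 1.65 CPM in Rosi3D and 169.8 ± 1.71 CPM in vehicle. Its falls in FSK4h (log2 fold change -0.14 ± 0.044, edgeR adjusted p = 0.00752) and FSK3D (log2 fold change -0.14 ± 0.044, edgeR adjusted p = 0.00834) were small. The Trpc4ap call in FSK4h was lost without FSK4h S5 (edgeR adjusted p = 0.0773). The Trpc4ap call in FSK3D was lost without FSK3D S10 (edgeR adjusted p = 0.0762).

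Set against each other, the 3-day treatments gave 19 channel genes higher and 7 lower in FSK3D than in Rosi3D, 40.6% of 64, against 43.1% of all tested genes. The split was uneven, with 29.7% higher and 10.9% lower, against 22.5% and 20.7% of all genes. Without FSK3D S10, 4 were lower. The median log2 fold change of the 64 was 0.27, against 0.003 for all genes. By role, 3 of 4 tested calcium pores and 3 of 5 inward rectifiers were higher in FSK3D and none lower, Cacna1i among the calcium pores resting on 1 Rosi3D read. Of 5 TRPV genes, 2 were lower (Trpv2 and Trpv3) and none higher. Leaving out Cacna1i, the largest differences with FSK3D higher were those of Kcne4, Kcnj2, Kcna4 and Kcnj15, given above, and those with Rosi3D higher included Trpv2 and Trpc6. Kcnc2 was also lower in FSK3D (log2 fold change -0.503 ± 0.19, edgeR adjusted p = 0.0313). The Kcnc2 call in FSK3D against Rosi3D was lost without FSK3D S10, FSK3D S11, FSK3D S12, Rosi3D S13 or Rosi3D S14 (edgeR adjusted p from 0.0534 to 0.143) or in DESeq2's Wald test (DESeq2 adjusted p = 0.0602). Kcnh2 was higher in FSK3D (log2 fold change 0.65 ± 0.15, edgeR adjusted p = 0.000423). The Kcnh2 call in FSK3D against Rosi3D was lost with all libraries thinned to the smallest total (edgeR adjusted p = 0.0558).

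Between forskolin times, more channel genes were called higher than lower at the later time. FSK1D against FSK4h gave 18 higher and 8 lower of 64 (28.1% and 12.5%), against 28.4% and 28.9% of all genes (57.3% in either direction). There the share called higher was near that of all genes, and the share called lower was below it. FSK3D against FSK4h gave 28 higher and 10 lower (43.8% and 15.6%), against 35% and 33.5% of all genes (68.5% in either direction). FSK3D against FSK1D gave 22 higher and 11 lower (34.4% and 17.2%), against 25.2% and 25.8% of all genes (51% in either direction). In both, the share called higher was above that of all genes and the share called lower was below it. With library size alone as the scaling, the median of all genes in FSK3D against FSK4h was 0.205, against 0.026 with TMM. Channel genes called higher were then 80.5% of those called, against 73.7% with TMM, while for all genes the share was 65.1%, against 51.1% with TMM. FSK1D against FSK4h gave 25 channel genes higher and 4 lower with that scaling, 86.2% higher, against 69.2% with TMM, and for all genes 68.8%, against 49.6%. These comparisons use the FSK4h libraries, in which 24 channel genes were called lower than vehicle.

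Other genes of ion transport gave the setting for the channel genes. Of 23 tested genes of calcium entry and calcium stores, 5 rose and 9 fell in FSK4h, and 5 rose and 5 fell in FSK1D. In FSK3D 8 rose and 4 fell, and in Rosi3D 10 rose and 6 fell. Atp2a2, the calcium pump of the endoplasmic reticulum, averaged 855 ± 5.03 CPM in FSK4h and 442 ± 2.58 CPM in vehicle (log2 fold change 0.95 ± 0.039, edgeR adjusted p = 1.21e-20). Atp2a3, its relative, averaged 28.6 ± 3.71 CPM in FSK3D and 68.96 ± 4.01 CPM in Rosi3D, against 5.65 ± 1.07 CPM in vehicle (log2 fold change 2.36 ± 0.13, edgeR adjusted p = 9.83e-14 in FSK3D, and log2 fold change 3.61 ± 0.12, edgeR adjusted p = 4.65e-18 in Rosi3D). Itpr3, a calcium release channel, fell in Rosi3D (log2 fold change -2.29 ± 0.079, edgeR adjusted p = 2.59e-17).

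Of 14 tested sodium and potassium pumps and exchangers, 6 rose and 5 fell in FSK4h, and 5 rose and 4 fell in FSK1D. In FSK3D 4 of them rose and 7 fell, and in Rosi3D 5 rose and 8 fell. Of 21 tested cation channels of other families, 3 rose and 11 fell in FSK4h, and 5 rose and 6 fell in FSK1D. In FSK3D 5 of these rose and 4 fell, and in Rosi3D 6 rose and 5 fell. The ATP-gated channel P2rx5, a surface marker of brown adipocytes, fell in FSK4h (log2 fold change -1.48 ± 0.14, edgeR adjusted p = 3.84e-11) and rose in Rosi3D (log2 fold change 0.46 ± 0.12, edgeR adjusted p = 0.00138), and P2rx3 rose in FSK3D (log2 fold change 1.58 ± 0.13, edgeR adjusted p = 1.19e-12). Of 20 tested chloride and volume-regulated channel genes, 7 rose and 5 fell in FSK4h, and 5 rose and 6 fell in FSK1D. In FSK3D 5 of these genes rose and 8 fell, and in Rosi3D 4 rose and 9 fell. The volume-regulated channel subunit Lrrc8c averaged 11.5 ± 1.36 CPM in FSK3D and 28.5 ± 1.25 CPM in vehicle (log2 fold change -1.33 ± 0.094, edgeR adjusted p = 5.86e-14), and Lrrc8d 34.5 ± 2.58 CPM in FSK3D and 15.1 ± 1.48 CPM in vehicle (log2 fold change 1.19 ± 0.086, edgeR adjusted p = 8.9e-14). These shares can be read against the 59%, 40.2%, 52.9% and 60.6% of all genes called in FSK4h, FSK1D, FSK3D and Rosi3D.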

How the data were processed

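Total RNA of MAP cells was rRNA-depleted and made into 15 libraries, per the labels' protocols. The authors deposited raw counts of reads for each gene, as whole numbers, with gene lengths in bases in another column. The submitters' processing notes name fastp, STAR and featureCounts as tools and GRCm38 as the build. Their versions, the annotation, strand and the treatment of read pairs were not given in the sources used here. Low counts were mostly even (407 to 539 genes with a count of 1 and 721 to 907 with a count of 2 per library), so both mates of a pair may have been counted. Exons of 15 of the 79 genes overlap another gene of the table, and their counts are uncertain to that degree.

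Each column is named by its group and by a number (S1 to S15) unlike the labels' replicate numbers, and served as an unnumbered replicate. The labels do not say whether a group's libraries are separate cultures; p-values then reflect the spread among these libraries alone, and that spread may be technical. Within groups, pairs of libraries differed beyond counting noise (chi-square per degree of freedom 3.12 to 11.2). The ribosomal precursor transcript Rn45s was left in and took 4.15% to 8.87% of counts.

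Counts were fitted in R 4.3.3 with edgeR 4.0.16 (limma 3.58.1): TMM factors, filterByExpr, 1 mean for each of 5 groups, robust quasi-likelihood fit, two-sided F test and Benjamini-Hochberg adjustment over 14421 genes. The procedure was tested on simulated counts in which a small part of the genes was changed, in FSK4h alone. That does not check the scaling where as many genes are called as here. Levels are TMM-scaled CPM. SE is the absolute log2 fold change divided by the square root of F. Positions are from GENCODE vM21 and promoters from RefSeq, both on GRCm38. The members and lists were chosen with earlier results of these data known. Named genes were, in each of 5 comparisons, up to 8 called in each direction by size with a mean of at least 0.5 CPM, the 8 highest per kb, and a fixed set of 16; others were named after their values were seen. A few genes are counted but not reported here by name. Alternatives were DESeq2 size factors, library size alone, other filters, counts halved, thinned libraries, fits of 2 groups, DESeq2 1.42.0, and each library left out. Intervals of counts cover counting error only.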

Additional observations from a re-analysis of the deposited data

Results flagged for a closer look

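Several channel genes were called in opposite directions against vehicle at different forskolin times. They are listed below only where the difference between the times, tested with edgeR, was also called. Such a call is likely once the calls against vehicle are opposite, so it adds no separate support. Between FSK1D and FSK4h, Kcnma1 differed by a log2 of 1.29 and Trpm4 by 0.95 (FSK1D over FSK4h). Between FSK3D and FSK1D (FSK3D over FSK1D), Cacna1g differed by 1.45, Trpm7 by 0.25, Cacnb3 by -1.32, Kcnn4 by -2.34 and Trpm4 by -0.54. Between FSK3D and FSK4h (FSK3D over FSK4h), Trpv3 differed by 2.16, Kcnma1 by 1.95, Scn7a by 1.28, Cacnb4 by 1.09, Cacna1g by 1.05 and Kcnn4 by -2.87. Several of the single calls against vehicle among these (Kcnma1, Scn7a and Cacnb4 in FSK4h, Trpm4, Trpm7 and Kcnn4 in FSK1D, and Trpm4, Trpm7 and Trpv3 in FSK3D) did not hold when 1 library was left out, as given above. The contrasts at a given time share libraries, and the time at which vehicle cells were taken is not given. Groups of 3 libraries were not searched for single outlying libraries.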

How the results depend on the processing

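Of the members called, 22 of 34 in FSK4h, 20 of 28 in FSK1D, 20 of 28 in FSK3D, 26 of 35 in Rosi3D and 18 of 26 in FSK3D against Rosi3D kept their call under every alternative and with each library left out. With library size alone as the scaling, channel genes called higher in FSK4h against vehicle were 6, against 10 with TMM, and those lower in FSK1D against FSK4h were 4, against 8. Trpc4ap in FSK3D against FSK4h changed sign under library size alone, to a log2 of 0.178 (edgeR adjusted p = 0.000862); these shifts go with that of the median of all genes. With libraries thinned to the smallest total, the genes lower in FSK1D against FSK4h were also 4, and the cause was not tested.

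With each library left out in turn, channel genes called higher and lower were 8 to 11 and 20 to 23 in FSK4h, 10 to 14 and 11 to 16 in FSK1D, 12 to 16 and 9 to 14 in FSK3D, and 13 to 15 and 17 to 20 in Rosi3D, each against vehicle. FSK3D against Rosi3D gave 17 to 19 higher and 4 to 7 lower, with 4 lower without FSK3D S10. FSK1D against FSK4h gave 14 to 19 and 6 to 8, FSK3D against FSK4h 23 to 26 and 9 to 11, and FSK3D against FSK1D 20 to 24 and 10 to 12. The other counts stayed within 1.5 times. No paired analysis was possible because the columns carry no replicate number of the labels. At 34 of 79 genes the mean level was below 1 CPM, which limits what can be called.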

Other observations

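The 15 channel genes too low to test had highest group means between 0.183 and 0.520 CPM. Kcnj8, the pore of ATP-sensitive potassium channels in vascular muscle, had 0.146, 0.151 and 1.26 CPM in FSK1D, against 0.185, 0 and 0 CPM in vehicle. Kcnq1 had 0.408, 0.274 and 0.413 CPM in FSK3D, against 0.0617, 0.0328 and 0.11 CPM in vehicle. Scn4a, the sodium pore of skeletal muscle, had 0.275, 0.323 and 0.396 CPM in FSK4h, against 0, 0.0656 and 0.0734 CPM in vehicle. These genes were picked after their values were seen and carry no test.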
